A study of Mus musculus with 4 samples.

Results

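This report concerns the genes that copy DNA and the E2F and DP transcription factor genes, 54 genes in all, in mouse embryonic stem cells with a knockout of the miR-290-295 microRNA cluster. Members were the rows of the count table whose GENCODE vM21 symbol was on a fixed list of replication and E2F symbols. All 54 symbols matched 1 row each, out of 55421 rows, and all 54 were among the 14427 genes that passed the low-count filter. By role the list held 44 replication genes and 10 E2F or DP genes.

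Cells labelled miR-290-295 knockout (KO, 2 libraries) were compared with cells labelled wild type (WT, 2 libraries). Both groups were embryonic stem cells of the E14 line, of 129/Ola background and blastocyst origin, grown on gelatin in medium with serum and LIF, a cytokine that keeps such cells undifferentiated. No drug, transgene or other allele is named for either group. How the deletion was made, and whether KO libraries 1 and 2 stem from different clones, is not stated in the labels, so an effect of the genotype and one of a clone cannot be told apart. They are labelled as biological duplicates with no word on separate cultures, and p-values here measure the spread between libraries, which may be technical. Each library came from a 3' tag method (QuantSeq), which reads each transcript close to its 3' end, and levels are given as CPM, a gene's counts scaled to the library total.

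Replication starts at origins that are bound by the origin recognition complex, on which CDC6 and CDT1 load the ring-shaped MCM helicase during G1 phase. CDC45, the GINS complex and MCM10 turn the loaded helicase into a moving fork, and polymerases, the sliding clamp PCNA, the single-strand binding complex RPA and DNA ligase I then copy and seal the strands. Many of these genes are transcribed in late G1 and S phase by E2F proteins, which bind DNA with a DP partner and are held back by the retinoblastoma family. Mouse embryonic stem cells are known for a short G1 phase and for high E2F activity through most of the cycle, and the miR-290 to miR-295 microRNAs are known for promoting their passage from G1 to S phase.

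The libraries held between 9925557 and 12726123 counts. As a check of the labels, the 7 plus-strand microRNA genes of the cluster together held 0 and 0 counts in KO libraries 1 and 2, against 88 and 39 in WT libraries 1 and 2. All 8 pluripotent stem cell markers were detected, with summed levels of 3404 and 3417 CPM in KO, against 3126 and 3529 CPM in WT. The 6 primitive endoderm markers summed to 9.82 and 9.43 CPM in KO, against 64.4 and 56.0 CPM in WT, and 4 of them were lower in KO by the test. Klf4 was the 1 pluripotency marker called, and it was lower in KO. Among 5 fibroblast or feeder markers Col3a1 was at 0 in every library, and the 2 that could be tested were lower in KO. The sums were 10.4 and 20.7 CPM in KO, against 28.9 and 51.9 CPM in WT. Thy1 made up most of these sums, with 9.82 and 20.3 CPM in KO, against 26.8 and 50.2 CPM in WT. Col1a1, the other tested marker, held 5 and 4 counts in KO, against 21 and 17 in WT. Whether such other cell types were present, and their part in the results below, was not tested.

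Of the mature strands of the deleted cluster, the 5 in the RefSeq table whose seed begins with AAGUGC are shown, because their seeds define which transcripts they can pair with. Bases 2 to 8 are in capitals, and the sequences are from RefSeq (GRCm38.p6, chromosome 7, plus strand). The first 3 share the seed AAGUGCU, and the other 2 share its first 6 bases. The other mature strands are not shown, among them miR-293-3p, whose seed is GUGCCGC. The mature miR-292a-3p was missing from the RefSeq sequences used here, so whether it belongs with these 5 was not examined.
miR-291a-3p: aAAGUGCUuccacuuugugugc
miR-294-3p: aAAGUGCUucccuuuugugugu
miR-295-3p: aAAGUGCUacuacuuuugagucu
miR-290a-3p: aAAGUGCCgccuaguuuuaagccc
miR-291b-3p: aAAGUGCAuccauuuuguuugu

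For the promoters, RefSeq windows from 250 bases before to 50 bases after the annotated start were found for 44 of the 54 members. The E2F motif was searched on both strands as TTTCGCGC, TTTGGCGC, TTTCCCGC or TTTGCCGC, words that can overlap each other on opposite strands. At least 1 of them was present for 18 of the 44 members (40.9%), against 704 of 27025 genes with such a window (2.6%) and 497 of 10256 tested genes (4.85%). TTTCGCGC was found in 7 members, TTTGGCGC in 7, TTTCCCGC in 9 and TTTGCCGC in 0. The matches are descriptions of letters, not measured binding. Windows follow RefSeq starts, and some lie inside the GENCODE gene. For E2f1 the only window (chr2:154569377-154569676) is inside the gene (chr2:154559407-154569892, minus strand). Both Tfdp2 windows begin at chr9:96258455 or later, inside a plus-strand gene that starts at 96196275. The GENCODE starts of E2f1 and Tfdp2 were therefore not searched. The members with a match were Orc1, Orc3, Cdc6, Cdt1, Mcm3, Mcm5, Mcm6, Mcm7, Gins3, Pola1, Pold1, Pole2, Rfc3, Lig1, E2f2, E2f3, E2f7 and Tfdp1. Of other elements known from cell cycle promoters, CCAAT on either strand was in 27 of 44 members (61.4%), against 41.1% of all genes and 43.4% of tested genes. TTTGAA was in 8 members (18.2%), against 20.2% of all genes and 14.1% of tested genes.

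Of the members that passed the expression test described below, Orc1, Lig1 and E2f2 had an E2F match, and their windows are printed with the match in capitals. They lie at chr4:108579204-108579503, chr7:13278576-13278875 and chr4:136172024-136172323 of GRCm38.p6, all on the plus strand. The leftmost base of the match is 27 bases before the start in Orc1 (TTTCGCGC on the minus strand), at base 27 after it in Lig1 (the same word, minus strand) and at base 40 after it in E2f2 (TTTGGCGC, plus strand). Lig1 and E2f2 have further annotated starts, whose windows held no match.
Orc1: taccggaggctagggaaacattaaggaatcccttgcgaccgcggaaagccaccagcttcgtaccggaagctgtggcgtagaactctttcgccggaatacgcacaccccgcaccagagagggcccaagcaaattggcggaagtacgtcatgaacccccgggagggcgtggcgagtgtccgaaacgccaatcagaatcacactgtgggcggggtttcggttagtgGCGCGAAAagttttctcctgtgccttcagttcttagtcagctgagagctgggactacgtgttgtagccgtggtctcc
Lig1: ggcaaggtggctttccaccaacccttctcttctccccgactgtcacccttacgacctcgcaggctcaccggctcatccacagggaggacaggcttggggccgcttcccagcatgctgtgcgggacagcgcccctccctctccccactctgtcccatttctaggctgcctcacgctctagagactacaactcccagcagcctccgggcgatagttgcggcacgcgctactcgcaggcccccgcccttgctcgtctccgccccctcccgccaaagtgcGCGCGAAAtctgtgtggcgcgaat
E2f2: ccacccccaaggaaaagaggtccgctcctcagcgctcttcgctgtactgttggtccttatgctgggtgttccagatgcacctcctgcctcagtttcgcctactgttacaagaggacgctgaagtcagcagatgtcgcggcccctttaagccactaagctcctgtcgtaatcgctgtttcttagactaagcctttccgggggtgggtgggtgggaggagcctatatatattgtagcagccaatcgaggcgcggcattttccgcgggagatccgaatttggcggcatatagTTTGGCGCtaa

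The libraries are from bulk RNA, in which fewer cells in a given cycle phase and less RNA per cell cannot be told apart. The main comparison asked how the level of each member differs in KO cells from WT cells. In edgeR's quasi-likelihood test over all genes, at a Benjamini-Hochberg adjusted p below 0.05, 7 of 54 members were lower in KO (13%) and 0 were higher. DESeq2 also called 7 lower and 0 higher. At an unadjusted p below 0.05 edgeR gave 10 lower members (18.5%), the 7 with Mcm5, Rfc4 and Rpa2, and 3 higher (5.56%), Cdc45, Pola1 and Tyms, where all genes tested gave 13% lower and 15.3% higher. Of all 14427 genes tested, 4.96% were lower and 7.42% were higher, and of the 8711 tested genes with a mean of at least 10 CPM, which is where all members lie, 4.87% were lower and 8.93% were higher. The 7 lower members were Rpa3, E2f2, Gins2, Pold2, Orc1, Mcm4 and Lig1. Rpa3 stood apart with 0.35 of the WT level, and the others had between 0.514 (E2f2) and 0.696 (Lig1) of it. In GRCm38 the genes lie at chr6:8255936-8259173 (Rpa3, minus strand), chr4:136172394-136196057 (E2f2, plus), chr8:120578633-120589304 (Gins2, minus), chr11:5872180-5878292 (Pold2, minus), chr4:108579423-108614833 (Orc1, plus), chr16:15623897-15637400 (Mcm4, minus) and chr7:13277283-13311433 (Lig1, plus).

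Over the 54 members the median log2 fold change (KO over WT) was -0.16, against -0.01 over all genes tested and 0.01 over the subset at 10 CPM or more. Negative values were seen for 39 members (72.2%), against 50.5% and 48.7% in those backgrounds. The members lay in a narrow band, with an SD of 0.34 against 0.92 and 0.63, and 1 member, Rpa3, changed by at least 1 on the log2 scale. Both KO libraries were below both WT libraries for 30 members (55.6%) and above them for 5 (9.26%), where all genes tested gave 28.8% and 29.2%. The 5 above were Cdc45, Pola1, Rrm1, Tyms and E2f1, and none of them passed the test. Member medians were also taken per library, as log2 of CPM over the geometric mean of the WT libraries. They were -0.157 and -0.161 in KO libraries 1 and 2, against -0.057 and 0.057 in WT libraries 1 and 2. Members below that mean numbered 34 and 41 in KO, against 40 and 14 in WT. A one-sided count of members was thus also present between the WT libraries.

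The members together took 0.695% and 0.709% of all counts in KO libraries 1 and 2, against 0.759% and 0.824% in WT libraries 1 and 2. The WT libraries thus differed from each other by more than the KO libraries did, and WT library 2 was higher for 40 of the 54 members. The absolute log2 ratio within a pair had a median of 0.10 in KO and 0.18 in WT. In WT it was over 0.5 for Mcm2, Gins2, Pola2, Rpa3 and Tk1, and in KO for no member. Leaving out KO library 1 left 2 members called lower (E2f2 and Rpa3), leaving out KO library 2 left 1 (Rpa3), and leaving out WT library 1 left 6 (Mcm4 lost its call). With WT library 2 left out, 5 of the 7 kept their calls, Gins2 and Lig1 lost theirs and Rpa2 gained one. Without WT library 1, 2 members, Mcm2 and Tyms, were called higher.

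**Figure D1:**
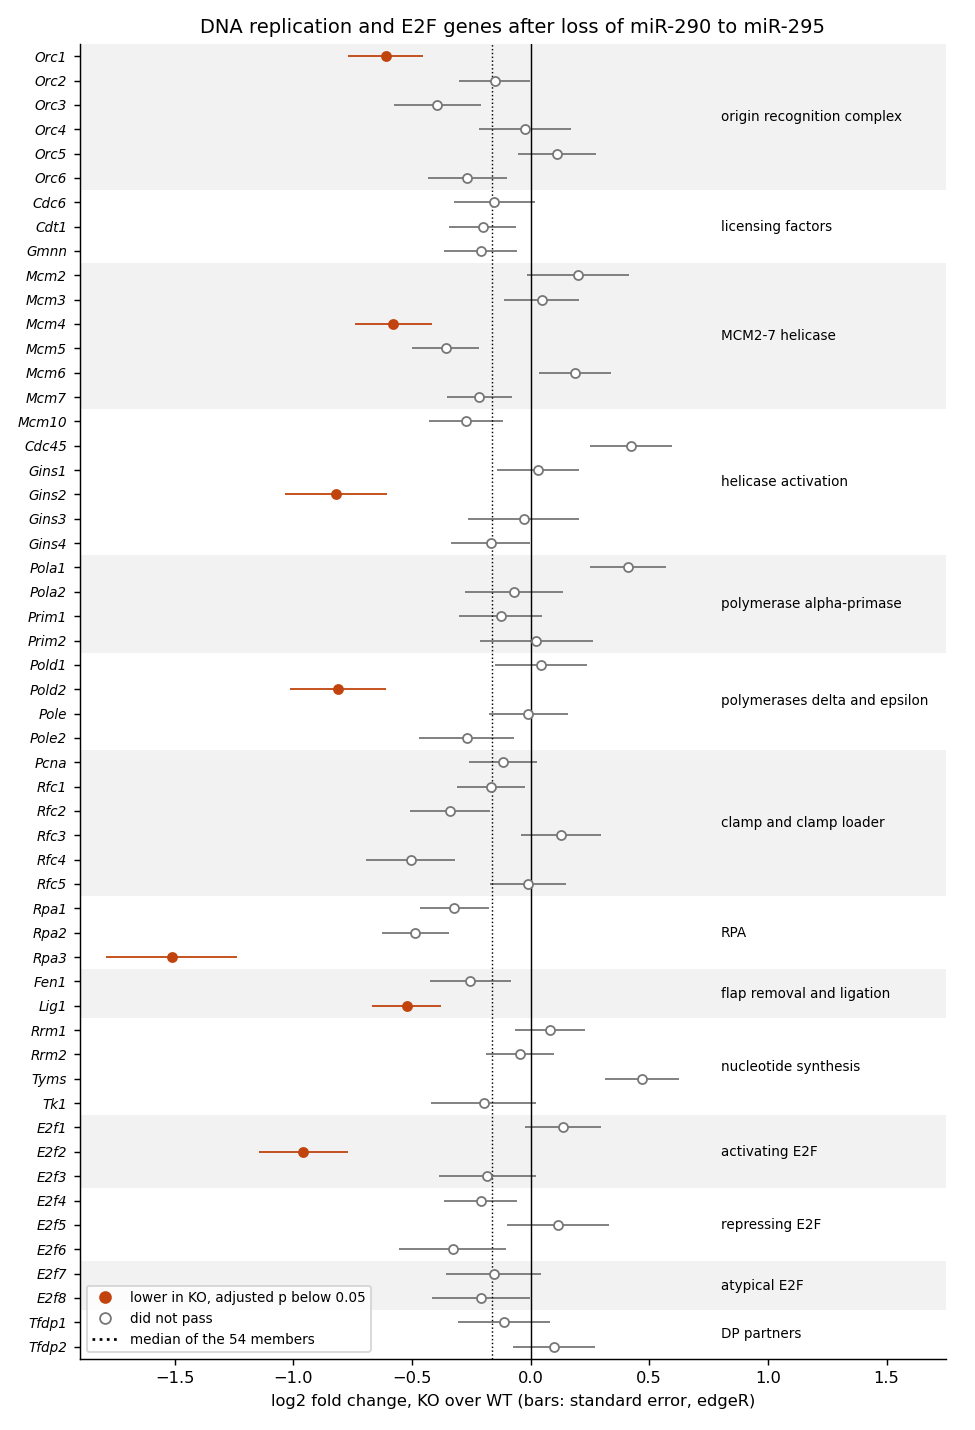
Log2 fold change (KO over WT) of each of the 54 members, grouped by role, with the standard error from edgeR, 2 libraries per group. Filled points are the 7 members with an adjusted p below 0.05, all left of 0, and the dotted line is the member median of -0.16.

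**Figure D2:**
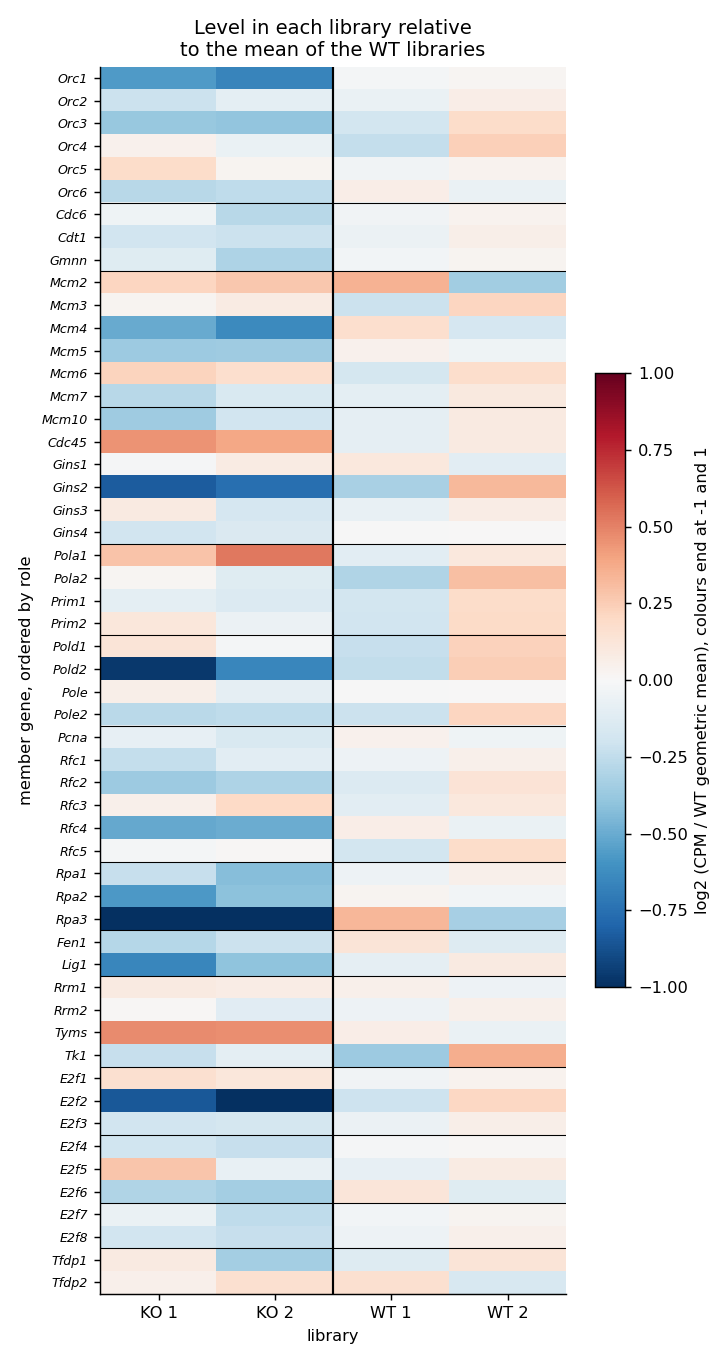
Level of each member in each library as log2 of its CPM over the geometric mean of the WT libraries, with KO libraries on the left and colours ending at -1 and 1. Blue prevails in both KO columns, while Cdc45, Pola1 and Tyms are red in both.

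Among the 6 subunits of the origin recognition complex, which marks origins, Orc1 fell and the other 5 did not pass. Orc1, the subunit whose level varies with the cell cycle in mammalian cells, had 66.9 and 62.8 CPM in KO libraries 1 and 2, against 98.1 and 100.3 CPM in WT libraries 1 and 2. The KO libraries lay close together and well below the WT libraries, which were also close. Its log2 fold change was -0.61 (SE 0.16, adjusted p = 0.0357); values in brackets after other genes are log2 fold changes too. Leaving out KO library 1 ended the call (-0.65, adjusted p = 0.211), as did leaving out KO library 2 (-0.56, adjusted p = 0.295). Orc3 had 48.2 and 47.7 CPM in KO, against 55.2 and 71.2 CPM in WT, with a log2 fold change of -0.39 (SE 0.18) and a 95% interval of -0.81 to 0.02. Orc6 had 62.8 and 63.7 CPM in KO, against 79.7 and 72.4 CPM in WT (-0.27, SE 0.17), and Orc2 had 119 and 129 CPM in KO, against 132 and 144 CPM in WT (-0.15, SE 0.15). In these 3 genes both KO libraries were below both WT libraries, by less than the test could separate from the spread. Orc4 (-0.02) and Orc5 (0.11) overlapped between groups, and Orc4 ranged from 50.8 to 70.8 CPM within WT alone.

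The licensing genes showed small differences in 1 direction, none past the test. Cdt1, which loads the helicase together with CDC6, had 188 and 185 CPM in KO, against 206 and 224 CPM in WT, with a log2 fold change of -0.20 (SE 0.14). Gmnn, which encodes geminin, the inhibitor of CDT1, had 109.5 and 96.5 CPM in KO, against 117 and 122 CPM in WT, a log2 fold change of -0.21 (SE 0.15, adjusted p = 0.42) and a 95% interval of -0.56 to 0.14. Cdc6 had 65.6 and 55.5 CPM in KO, against 65.9 and 69.0 CPM in WT, and its log2 fold change was -0.15 (SE 0.17). All 3 genes had both KO libraries below both WT libraries, as did 28.8% of all genes tested and 55.6% of the members. For Cdc6, KO library 1 and WT library 1 were nearly level.

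Of the 6 MCM genes, whose products form the ring of the replicative helicase, 1 fell and the other 5 did not pass. Mcm4 fell, with 235 and 215 CPM in KO libraries 1 and 2, against 374 and 297 CPM in WT libraries 1 and 2 and a log2 fold change of -0.58 (SE 0.16, adjusted p = 0.048). It is at the edge of the threshold: it gave -0.64 (adjusted p = 0.17) when KO library 1 was left out, -0.51 (adjusted p = 0.293) when KO library 2 was, and -0.39 (adjusted p = 0.1) when WT library 1 was. With only genes of at least 10 CPM tested its adjusted p was 0.0511. Mcm5 had 191 and 191 CPM in KO, against 252 and 237 CPM in WT, with a log2 fold change of -0.36 (SE 0.14, adjusted p = 0.133), and Mcm7 had 540.3 and 588 CPM in KO, against 612 and 702 CPM in WT (-0.22, SE 0.14). Both genes were lower in each KO library than in each WT library. Mcm7 carries miR-25 and miR-93 in its introns, and those microRNA genes held 0 counts in all libraries.

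Mcm2, Mcm3 and Mcm6 had values above 0 that did not pass. Mcm2 had 319.5 and 331 CPM in KO libraries 1 and 2, against 349 and 217 CPM in WT libraries 1 and 2. WT library 2 set its sign, with a log2 fold change of 0.20 over all libraries, -0.12 without WT library 2 and 0.61 (adjusted p = 0.0155) without WT library 1. Mcm3 had 739.7 and 767 CPM in KO, against 623 and 842 CPM in WT (0.05), and Mcm6 had 377 and 363 CPM in KO, against 286 and 366 CPM in WT (0.19). Both are on chromosome 1, where the median over 889 tested genes was 0.27 for the log2 ratio of KO over WT and -0.31 for that of WT library 1 over WT library 2. With chromosome medians taken out, Mcm3 was at -0.22 and Mcm6 at -0.0826. The other members on that chromosome are Orc2, at -0.42 in that fit, and Prim2, at -0.24.

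Of the genes that turn the loaded helicase into a fork, Gins2 fell, and Cdc45 was the member of this group with the highest positive value. Gins2, a subunit of the GINS complex, had 51.2 and 54.1 CPM in KO libraries 1 and 2, against 72.8 and 114 CPM in WT libraries 1 and 2. The KO libraries were alike and below both WT libraries, which differed from each other more than the nearer of them differed from KO. The log2 fold change was -0.82 (SE 0.21, adjusted p = 0.0374), and it was -0.77 (adjusted p = 0.164) with KO library 1 left out, -0.86 (adjusted p = 0.117) with KO library 2 left out and -0.49 (adjusted p = 0.0815) with WT library 2 left out. With chromosome medians taken out its adjusted p was 0.0523. Its exons overlap those of Gse1 on the opposite strand, which held 866 and 581 counts in KO, against 695 and 441 in WT, while Gins2 held 651 and 637 counts in KO, against 885 and 1133 in WT. Whether reads were counted by strand is not given in the sources used here, so reads of this overlap could be shared.

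Cdc45, the helicase cofactor, had 60.4 and 57.8 CPM in KO, against 41.5 and 46.9 CPM in WT, with a log2 fold change of 0.42 (SE 0.17, adjusted p = 0.147). Its unadjusted 95% interval ran from 0.03 to 0.81. Exons of Cdc45 overlap those of Ufd1 on the opposite strand, which held 1056 and 914 counts in KO, against 848 and 679 in WT. Cdc45 itself held 769 and 680 counts in KO, against 505 and 466 in WT, so shared reads could weigh on its level. The other GINS subunits did not pass: Gins1 had a log2 fold change of 0.03, Gins3 of -0.03 and Gins4 of -0.17, of which Gins4 was lower in both KO libraries. Whether Gins2 differs from them was not tested. Mcm10, which acts when the helicase is activated, had 102 and 114 CPM in KO, against 123 and 139 CPM in WT (-0.27, SE 0.16), lower in both KO libraries.

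The polymerases again showed 1 change. Pold2, the small subunit of the lagging-strand polymerase delta, fell, with 52.1 and 64.5 CPM in KO libraries 1 and 2, against 85.7 and 120.0 CPM in WT libraries 1 and 2. Both KO libraries were below both WT libraries, although the spread within each pair was wide. Its log2 fold change was -0.81 (SE 0.20, adjusted p = 0.0311), and it was -0.66 (adjusted p = 0.224) with KO library 1 left out and -0.97 (adjusted p = 0.0575) with KO library 2 left out. Pold1, the catalytic subunit of the same enzyme, had 62.3 and 56.4 CPM in KO, against 48.8 and 66.8 CPM in WT and a log2 fold change of 0.04 (95% interval -0.39 to 0.48). Pole, the catalytic subunit of the leading-strand polymerase epsilon, had 67.4 and 60.9 CPM in KO, against 64.5 and 65.0 CPM in WT (-0.01), and its partner Pole2 had 37.2 and 37.7 CPM in KO, against 38.8 and 52.0 CPM in WT (-0.27, SE 0.20).

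In the polymerase alpha-primase complex, which lays down primers, 0 of 4 genes passed. Pola1, the catalytic subunit, had 149 and 176 CPM in KO, against 114 and 131 CPM in WT, above WT in both KO libraries. Its log2 fold change was 0.41 (SE 0.16, adjusted p = 0.128), with an unadjusted 95% interval of 0.05 to 0.77. Pola2 (-0.07), Prim1 (-0.13) and Prim2 (0.02) overlapped between groups, and WT library 2 was the highest library in all 3.

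The single-strand binding complex RPA held the member with the greatest change. Rpa3, the smallest of its 3 subunits, had 11.6 and 14.7 CPM in KO libraries 1 and 2, against 45.9 and 29.0 CPM in WT libraries 1 and 2. Its counts were 148 and 173 in KO, against 558 and 288 in WT. The KO libraries were near each other and below both WT libraries, which were far apart. The group means were 13.2 ± 2.17 CPM in KO and 37.4 ± 11.9 CPM in WT (SD, n = 2 each), and the log2 fold change was -1.51 (SE 0.28, adjusted p = 0.0097). This was the only member whose call held in all 11 alternative fits, where its log2 fold change without 1 library ranged from -1.82 to -1.12. Rpa2 had 251 and 281 CPM in KO, against 381 and 365 CPM in WT and a log2 fold change of -0.49 (SE 0.14, adjusted p = 0.0533), just short of the threshold. It passed with library totals in place of TMM (adjusted p = 0.0497), with no filter (0.0258), with a mean of at least 10 CPM (0.0496) and without WT library 2 (0.0216). Rpa1, the largest subunit, had 189 and 165 CPM in KO, against 213 and 229.6 CPM in WT (-0.32, SE 0.15). All 3 subunits had both KO libraries below both WT libraries, as did 28.8% of all genes tested and 55.6% of the members. Rpa1 and Rpa2 did not pass the main test.

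Lig1, DNA ligase I, which seals Okazaki fragments, fell. It had 496 and 589.6 CPM in KO libraries 1 and 2, against 731 and 832 CPM in WT libraries 1 and 2, and its log2 fold change was -0.52 (SE 0.14, adjusted p = 0.0454). The groups did not overlap, and the call ended when KO library 1 (-0.40, adjusted p = 0.391), KO library 2 (-0.65, adjusted p = 0.104) or WT library 2 (-0.45, adjusted p = 0.0522) was left out. With chromosome medians taken out its adjusted p was 0.0505. Fen1, the flap endonuclease that prepares the same fragments for ligation, had 78.2 and 82.0 CPM in KO, against 104 and 87.0 CPM in WT (-0.25, SE 0.17).

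The sliding clamp and its loader showed no call among 6 genes. Pcna, the clamp, had 208 and 198 CPM in KO, against 227 and 213 CPM in WT, lower in both KO libraries, with a log2 fold change of -0.12 and a 95% interval of -0.44 to 0.21. Rfc4 had the most negative value of the loader subunits, with 30.8 and 31.2 CPM in KO, against 46.0 and 42.1 CPM in WT and a log2 fold change of -0.51 (SE 0.19, adjusted p = 0.111). Its exons overlap those of Eif4a2 on the opposite strand, which held 1299 and 1112 counts in KO, against 1702 and 1482 in WT. Rfc1 (-0.17) and Rfc2 (-0.34) also had both KO libraries below both WT libraries, while Rfc3 (0.13) and Rfc5 (-0.01) overlapped.

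The nucleotide synthesis genes were the role group with the highest median, 0.02, and none passed. Tyms, thymidylate synthase, had 123 and 123 CPM in KO libraries 1 and 2, against 93.2 and 84.9 CPM in WT libraries 1 and 2, with both KO libraries above both WT libraries. Its log2 fold change was 0.47 (SE 0.16, adjusted p = 0.0809), the highest of the 54 members, and it passed without WT library 1 (0.55, adjusted p = 0.0395). Rrm1, the large subunit of ribonucleotide reductase, had 152 and 151 CPM in KO, against 148 and 138 CPM in WT (0.08), and Rrm2, the small subunit, had 218 and 199 CPM in KO, against 208 and 224 CPM in WT (-0.05). Tk1, the cytosolic thymidine kinase, had 86.9 and 95.6 CPM in KO, against 79.5 and 131 CPM in WT (-0.20), and its WT libraries lay on either side of both KO libraries.

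**Figure D3:**
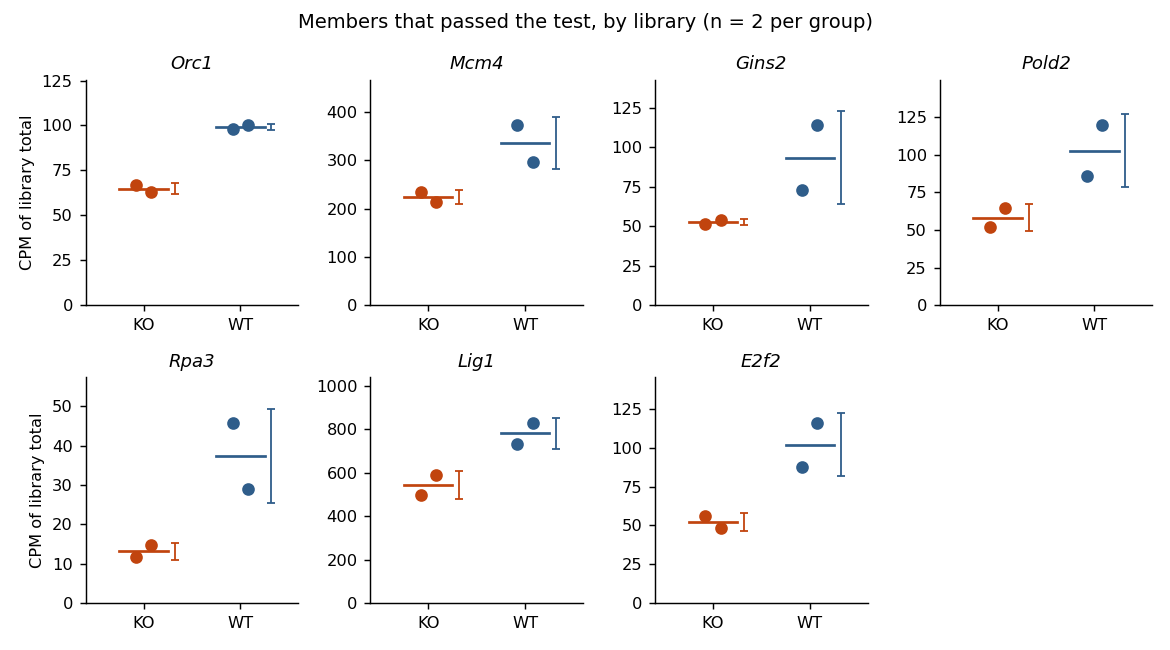
CPM of the 7 members that passed the test in each library, KO left of WT, with the group mean as a line and the SD as a bar (n = 2). The KO points are below the WT points in every panel, and the WT libraries of Rpa3, Gins2 and Pold2 are far apart.

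The E2F family was then examined gene by gene, since its members have opposed roles. Among the activating factors, which drive S-phase genes, E2f2 fell and E2f1 and E2f3 did not pass. E2f2 had 56.3 and 48.4 CPM in KO libraries 1 and 2, against 87.7 and 116 CPM in WT libraries 1 and 2. Both KO libraries were well below both WT libraries. The means were 52.3 ± 5.58 CPM in KO and 102 ± 20.3 CPM in WT (SD, n = 2 each), and the log2 fold change was -0.96 (SE 0.19, adjusted p = 0.0129). Without KO library 2 it gave -0.85 (adjusted p = 0.0942). E2f1 had 75.7 and 73.1 CPM in KO, against 66.1 and 69.3 CPM in WT, with a log2 fold change of 0.14 (SE 0.16) and a 95% interval of -0.22 to 0.50. E2f3 had 23.0 and 23.2 CPM in KO, against 25.2 and 27.4 CPM in WT, with a log2 fold change of -0.18 (SE 0.20). The KO libraries of E2f1 were above its WT libraries and those of E2f3 below, each by a small margin.

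The repressing factors E2f4, E2f5 and E2f6 did not pass. E2f4, which acts with the pocket proteins p107 and p130, had 81.1 and 79.4 CPM in KO, against 92.2 and 93.8 CPM in WT (-0.21, SE 0.15). E2f5, its close relative, had 32.5 and 25.5 CPM in KO, against 25.3 and 28.4 CPM in WT (0.12, SE 0.21). Exons of E2f5 overlap those of 1810022K09Rik on the opposite strand, which held 2447 and 2146 counts in KO, against 2481 and 2008 in WT. E2f5 itself held 414 and 300 counts in KO, against 308 and 282 in WT, so shared reads could weigh on its level. E2f6, which represses without pocket proteins, had 18.2 and 17.7 CPM in KO, against 24.3 and 20.7 CPM in WT (-0.33, SE 0.22). E2f5 overlapped between groups, and the other 2 were lower in each KO library.

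The atypical factors, which bind without a DP partner and repress E2F targets, lay in the same range. E2f7 had 28.3 and 24.9 CPM in KO, against 29.1 and 30.2 CPM in WT (-0.15, SE 0.20), and E2f8 had 22.4 and 21.8 CPM in KO, against 24.7 and 26.6 CPM in WT (-0.21, SE 0.20). Both KO libraries were below both WT libraries for each, by less than the spread allows to be called. Of the DP partners, Tfdp1 had 82.6 and 61.0 CPM in KO, against 70.7 and 84.8 CPM in WT (-0.11, SE 0.19) and Tfdp2 had 105 and 113 CPM in KO, against 113 and 90.9 CPM in WT (0.10, SE 0.17), and both overlapped between groups.

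**Figure D4:**
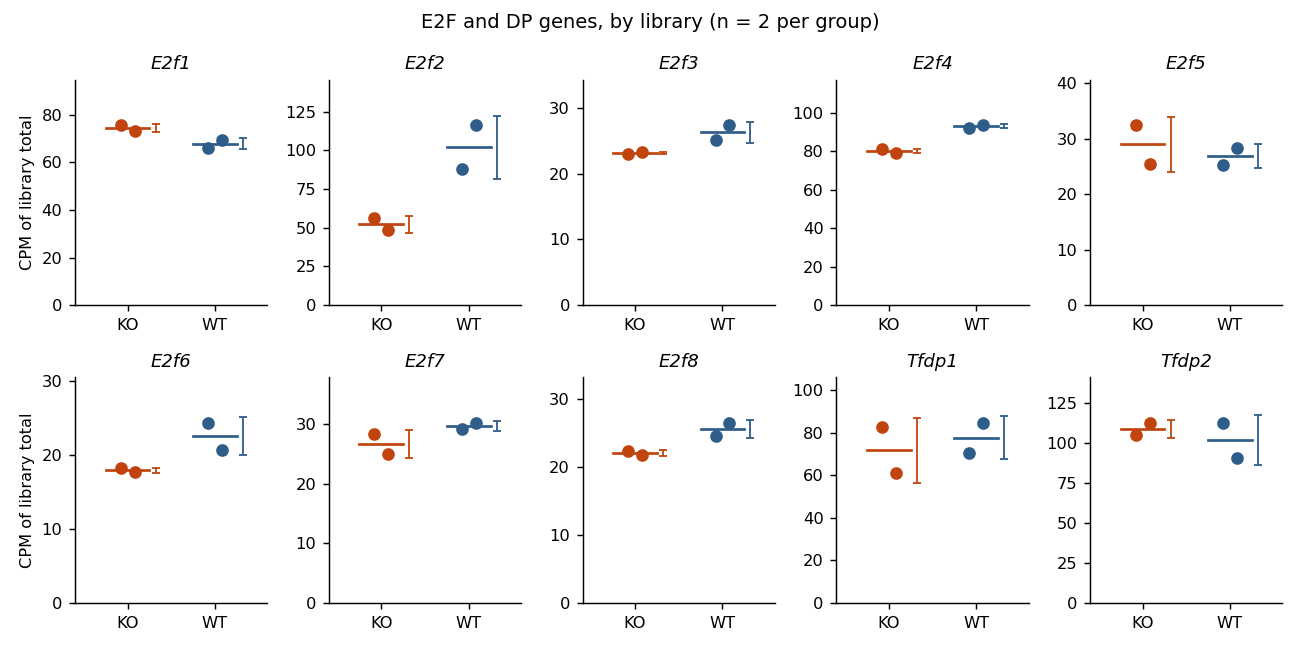
CPM of the 8 E2F and 2 DP genes in each library, KO left of WT, with the group mean as a line and the SD as a bar (n = 2). E2f2 is the 1 gene whose KO points lie far below its WT points.

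The members were next described by whether their promoter window held an E2F match. Of the 18 with a match, 3 were lower in KO and 0 higher, with a median log2 fold change of -0.17. Of the 26 with a window and no match, 2 were lower and 0 higher, with a median of -0.14. These 26 include E2f1 and Tfdp2, whose windows lie inside the gene and leave out its GENCODE start. Of the 10 members with no window, 2 were lower, with a median of -0.19. For comparison, 4.96% of all genes tested were lower and 7.42% were higher. Fold changes of all genes were not split by match, and a difference between the member groups was not tested.

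Matches to the seed AAGUGCU were searched in the longest GENCODE 3' UTR of each member, as AGCACTT or GCACTTA. At least 1 was found in 13 of 54 members (24.1%), against 21.8% of 12495 tested genes with a 3' UTR, whose median length was 1331 bases against 682 for the members. The 13 were Orc4, Cdc6, Cdt1, Mcm6, Gins3, Pola1, Rfc2, Rpa2, Tyms, E2f2, E2f5, E2f7 and Tfdp2. Their log2 fold changes ran from -0.96 to 0.47 with a median of -0.03, against -0.18 for the 41 members without a match. Over all tested genes the medians were 0.10 with a match and -0.02 without. Of the 13, 1 was lower (E2f2) and 0 were higher, where 4.96% of all genes tested were lower and 7.42% higher.

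E2f2 and Tyms had 3 matches each and E2f7 had 2, and these are printed with the matched bases in capitals, the longest stretch being 8 bases. E2f2 had the lowest fold change of the 13 and Tyms the highest. An 8-base match is among those of E2f2 and not among those of Tyms. Whether matches bear on the fold changes was not tested. The E2f2 stretches lie at chr4:136193328-136193357, chr4:136193559-136193588 and chr4:136194367-136194396 (plus strand), those of E2f7 at chr10:110785115-110785144 and chr10:110785385-110785414 (plus strand), and those of Tyms at chr5:30060520-30060549, chr5:30059253-30059282 and chr5:30058945-30058974 (minus strand), all in GRCm38. A match is a description of the annotated 3' UTR and does not show that the site is used or that this 3' UTR is present in these cells.
E2f2 site 1: ctttttcaagaAGCACTTAacgcctttgta
E2f2 site 2: ttgaattaattGCACTTAggctttgtaatt
E2f2 site 3: ctcagtggggcAGCACTTtttgcttgttgt
E2f7 site 1: cggggttgcctAGCACTTAaccagggtaag
E2f7 site 2: tgacttgccctGCACTTAttctacagctta
Tyms site 1: cttcaggtagaAGCACTTgcagtccctcaa
Tyms site 2: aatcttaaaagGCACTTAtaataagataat
Tyms site 3: ggagattcaatGCACTTAggttttttttgt

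Other genes of the pathway, taken from a list of 52 that are not members, were measured in the same fit. Of these, 51 were tested, 2 were lower and 1 was higher, with a median log2 fold change of -0.18. Over all genes tested 4.96% were lower and 7.42% higher, so neither count exceeds the background share. Topbp1, which helps to activate the helicase and the checkpoint kinase ATR, had 93.2 and 99.0 CPM in KO, against 147 and 155 CPM in WT and a log2 fold change of -0.65 (SE 0.15, adjusted p = 0.0233). Hus1, a subunit of the checkpoint clamp, had 28.6 and 27.5 CPM in KO, against 61.9 and 50.7 CPM in WT and a log2 fold change of -1.01 (SE 0.20, adjusted p = 0.0127). Chtf18, a subunit of an alternative clamp loader, had 63.8 and 49.2 CPM in KO, against 31.2 and 30.6 CPM in WT and was higher, by 0.87 (SE 0.20, adjusted p = 0.0224). All 6 checkpoint genes of the list had both KO libraries below both WT libraries, where 28.8% of all genes tested did, with a median of -0.43, and 1 of them, Hus1, passed. With KO library 1 left out 0 were lower and 0 higher, with KO library 2 left out 0 and 1, with WT library 1 left out 5 and 3, and with WT library 2 left out 6 and 2.

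**Figure D5:**
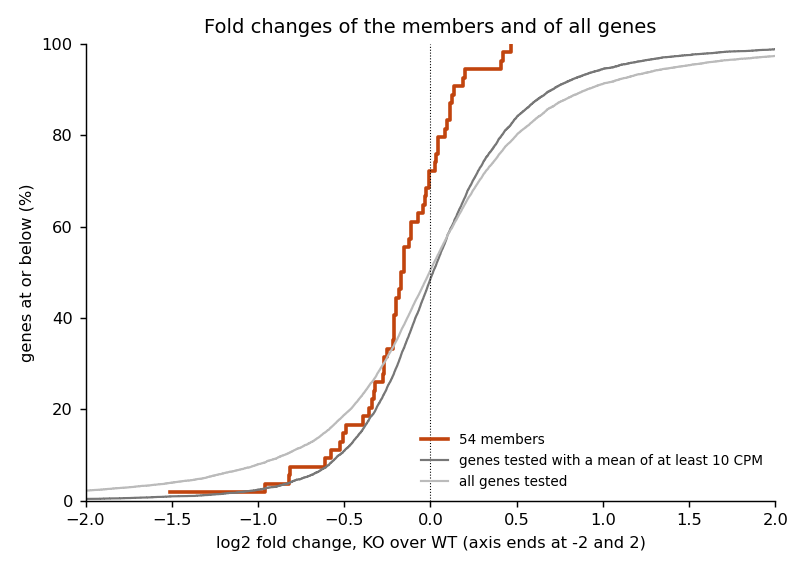
Percentage of genes at or below each log2 fold change (KO over WT), for the 54 members, for the 8711 tested genes with a mean of at least 10 CPM and for all 14427 genes tested. The member curve lies to the left of the others around 0 and reaches 100% at 0.47, the value of Tyms.

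Exons of 20 members overlap another annotated gene, and for 11 of these the neighbour held at least 50 counts in a library. These 11 are Orc2, Orc4, Orc6, Mcm7, Cdc45, Gins2, Rfc4, Rfc5, Fen1, Lig1 and E2f5, and shared reads could weigh on the level of each. Among the called members these are Gins2, described above, and Lig1, whose neighbour Zswim9 on the opposite strand held 84 and 94 counts in KO, against 71 and 86 in WT, while Lig1 held 6318 and 6936 counts in KO, against 8897 and 8256 in WT. Processed copies were looked up only by a member symbol with the suffix ps, so copies under other names were not searched. Annotated copies of Pcna and Tyms can share reads with them: Pcna-ps2 held 65 and 40 counts in KO, against 88 and 48 in WT, and Tyms-ps held 6 and 3 in KO, against 2 and 6 in WT.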

How the data were processed

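Messenger RNA was measured in 4 libraries, 2 of KO and 2 of WT embryonic stem cells, made with the QuantSeq 3' FWD kit from Trizol-extracted RNA, per the labels' protocols. The authors deposited raw counts by Ensembl gene identifier in 1 table that holds all libraries, without normalization. The submitters' processing notes name Trim Galore and GRCm38. Aligner, counter, strand setting and annotation release: not given in the sources used here. Unknown strand handling means that reads of overlapping genes can be shared.

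Symbols and positions came from GENCODE vM21, which named 55154 of 55421 identifiers; the other 267 held 0.0118% of counts and carry Ensembl identifiers and stayed in the library totals and tests. CPM values are counts scaled to the library total. Group differences were tested with edgeR 4.0.16 in R 4.3.3 (quasi-likelihood F test, two-sided, TMM, filterByExpr, group as the only term), with Benjamini-Hochberg adjustment over all 14427 genes tested at 0.05. With a common biological coefficient of variation of 0.198, each standard error is the log2 fold change over the square root of F, and 95% intervals are not adjusted for the number of genes. Depth gives a floor of 3 counts, or 0.236 to 0.302 CPM per library, and the lowest member count was 148. Such floors cover counting error only, because PCR copies of 1 molecule are counted apart when no molecular identifier is used. No library repeats another: the chi-square of counts per degree of freedom was 11.3 between KO libraries and 18.9 between WT libraries.

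Sequences are from RefSeq tables (GRCm38.p6) and GENCODE transcripts. Members called, the largest fold change of each role and all E2F and DP genes are given in full, and up to 3 called genes per list of other replication genes. Members and lists were chosen with earlier results of these data known. Orc3, Orc6 and other members described beyond that rule were chosen after their values were seen. No set test was run. The fit was tested on simulated data. Alternatives were DESeq2 1.42.0 size factors and test, library totals, other filters, the replicate number as a block, each library left out and, added after the data were seen, chromosome medians removed.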

Additional observations from a re-analysis of the deposited data

How the results depend on the processing

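The member median kept its sign in all 11 alternatives, between -0.20 and -0.13, within 0.0573 (1 SD between libraries) of the main value. With each library left out in turn, where fewer residual degrees of freedom remain, members called lower numbered 1 to 6 and higher 0 to 2, all genes higher 556 to 1477 and lower 285 to 1011, and other replication genes higher 0 to 3 and lower 0 to 6. The lone library of a group was then assumed to vary like the other pair. Without a filter 1193 genes were lower and 3 other replication genes higher, and with a mean of at least 10 CPM 636 genes were higher and 391 lower; members called lower numbered 8 and 7 in these fits, and 8 with library totals. With the replicate number as a block, 638 genes were higher, 370 genes and 4 members lower (Orc1, Mcm4 and Gins2 lost their calls) and 1 other replication gene lower. The numbers share no stated culture or day, the deviations of same-numbered libraries correlated at -0.0703 over 14427 genes, and the cause was not tested. Of 594 single-member values, 537 kept their direction and side of the threshold, 20 lost a call, 6 gained one and 31 changed sign, 0 of these among the 7 called members. Members that changed sign with 1 library left out had these ranges of log2 fold change: Orc4 (-0.23 to 0.21), Mcm2 (-0.12 to 0.61), Mcm3 (-0.14 to 0.26), Gins1 (-0.0866 to 0.16), Gins3 (-0.16 to 0.0982), Pola2 (-0.33 to 0.23), Prim1 (-0.29 to 0.0466), Prim2 (-0.14 to 0.20), Pold1 (-0.15 to 0.26), Pole (-0.0771 to 0.0652), Rfc5 (-0.17 to 0.16), Rrm2 (-0.10 to 0.0213), Tk1 (-0.50 to 0.18), E2f5 (-0.0642 to 0.28), Tfdp1 (-0.34 to 0.0951), Tfdp2 (-0.0704 to 0.28). With chromosome medians removed, the sign changed for Mcm3 (-0.22), Mcm6 (-0.0826), Gins3 (0.0406), Prim2 (-0.24), Pole (0.0133), Rfc5 (0.0132). With 2 libraries per group, intervals of most members span both signs, so differences of their size were mostly not detectable at this spread.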
